A study of Sus scrofa with 8 samples.

Results

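The genes described here are markers of neutrophils and mediators of acute inflammation. They are S100A8, S100A9, S100A12, CSF3R, CXCR2, CXCL8, IL1B, IL6, TNF and PTGS2, taken by name. Of the 10 names, 7 matched an identifier among the 22516 genes of the files. S100A9, CXCR2 and IL1B matched none and were not analysed here. The transcripts were measured by RNA-seq in the olfactory epithelium (OE), the part of the nasal lining in which the olfactory sensory neurons sit. All animals were 8-month-old sows in estrus from a cross of Landrace boars with Rongchang sows. In the androstenone treatment group, 2 sows had Boarmate, a spray that mainly contains the boar pheromone androstenone, applied to the nasal cavity, and the OE was taken 30 min later. The 2 sows of the control group were given no solution at all, so that androstenone, the rest of the spray and the act of spraying cannot be told apart. The left and right OE of each sow made separate libraries, 4 per group. The labels do not tie libraries to a sow, and every p-value below takes libraries as replicates and is therefore too small for a comparison of animals. With 2 sows against 2, the smallest p of a two-sided exact test over animals would be 0.333.

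Neutrophils are short-lived white blood cells that leave the blood within minutes to hours of a tissue alarm. S100A8, S100A9 and S100A12 are small calcium-binding proteins that fill their cytoplasm, and S100A8 and S100A9 are also made by stressed epithelium. CSF3R, the receptor of the growth factor G-CSF, and CXCR2, the receptor of chemokines such as CXCL8, guide neutrophil production and migration. IL1B, TNF and IL6 are the cytokines that start and spread the acute response, largely through the transcription factor NF-kB, and PTGS2 (COX-2) is the inducible enzyme that makes the precursor of the prostaglandins.

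The libraries held 81580146 to 100685566 estimated counts, except for control 1 with 4178330. The sequencing summary of the study does not list fewer reads for that library, and the difference is not explained in the sources. The 10 most abundant genes of control 4 made up 29.4% of its counts, compared with 6.57% to 9.02% elsewhere, and its 5 summed osteoblast markers were at 166094 CPM, against 1174 to 12958 CPM in the other libraries. CPM are counts scaled to a common library total after correction by the TMM factor, meant for such shifts in composition. The 8 markers of ciliated cells were at 502 to 2432 CPM and were highest in control 3, androstenone 1 and androstenone 2. The 7 measured markers of olfactory sensory neurons summed to 84.9 to 277 CPM, of which STOML3 made up 71.9%. ADCY3, GNAL and CNGA2 had up to 4028, 2105 and 1162 counts in a library, whereas RTP2 was at 0 in every library, RTP1 had at most 11 counts and GNG13 at most 7. Every pair of libraries differed by more than sampling noise. Androstenone 1 and 2 (chi-square per degree of freedom 109) and androstenone 3 and 4 (114) were closer to each other than libraries across these pairs (715 to 1085). Whether these pairs are the sides of a sow is not stated in the labels.

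Both S100 genes were higher in every androstenone library than in any control library. S100A8 (ENSSSCG00000006590, chromosome 4 of Sscrofa11.1 from 96209670 to 96210603), a subunit of calprotectin, was at 1.03, 0.644, 3.23 and 1.053 CPM in controls 1 to 4. In androstenone 1 to 4 it was at 10.01, 18.6, 6.03 and 9.95 CPM. The lowest androstenone value was thus above the highest control value, which came from control 3, and control 2 was the lowest of all. The control group was at 1.49 ± 1.18 CPM (SD, n = 4 libraries) and the androstenone treatment group at 11.2 ± 5.32 CPM (SD, n = 4), a ratio of 7.49. The log2 fold change was 2.87 (standard error 0.59, 95% interval 1.52 to 4.21) with an unadjusted p of 0.00104 from edgeR's quasi-likelihood test. The value of control 1 rests on 5 counts, with an exact counting interval of 0.334 to 2.40 CPM, which covers counting error only and ends below every androstenone library.

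S100A12 (ENSSSCG00000032857, chromosome 4 from 96225691 to 96227030), also called calgranulin C, was the most abundant of the 7 genes. It was at 16.0, 5.48, 41.7 and 17.0 CPM in controls 1 to 4, and at 107, 179, 78.5 and 102 CPM in androstenone 1 to 4. Control 3 was again the highest control library, androstenone 2 the highest and androstenone 3 the lowest of the treated libraries, and the groups did not overlap. The means were 20.04 ± 15.3 and 117 ± 43.6 CPM (SD, n = 4 libraries each), a ratio of 5.83. The log2 fold change was 2.54 (standard error 0.57, 95% interval 1.23 to 3.85) with an unadjusted p of 0.00189 in the same test. In bulk tissue, more cells of a type and more RNA per cell cannot be told apart.

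CSF3R (ENSSSCG00000025795, chromosome 6 from 92550159 to 92565798), which is carried mainly by granulocytes and their precursors, was also higher, by a smaller ratio. It was at 5.55, 4.52, 5.03 and 3.23 CPM in controls 1 to 4 and at 12.4, 9.40, 7.53 and 11.2 CPM in androstenone 1 to 4, again without overlap. The group means were 4.58 ± 0.992 and 10.1 ± 2.12 CPM (SD, n = 4 libraries each), a ratio of 2.21. The log2 fold change was 1.15 (standard error 0.26, 95% interval 0.56 to 1.75), with an unadjusted p of 0.00188 from edgeR's quasi-likelihood test. Per count of CSF3R, S100A8 had 0.143 to 0.643 counts in the control libraries and 0.801 to 1.98 in the androstenone libraries. The corresponding range for S100A12 was 1.21 to 8.28 in controls and 8.65 to 19.1 after androstenone. Neither ratio overlapped between the groups, and the difference was not tested.

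**Figure D1:**
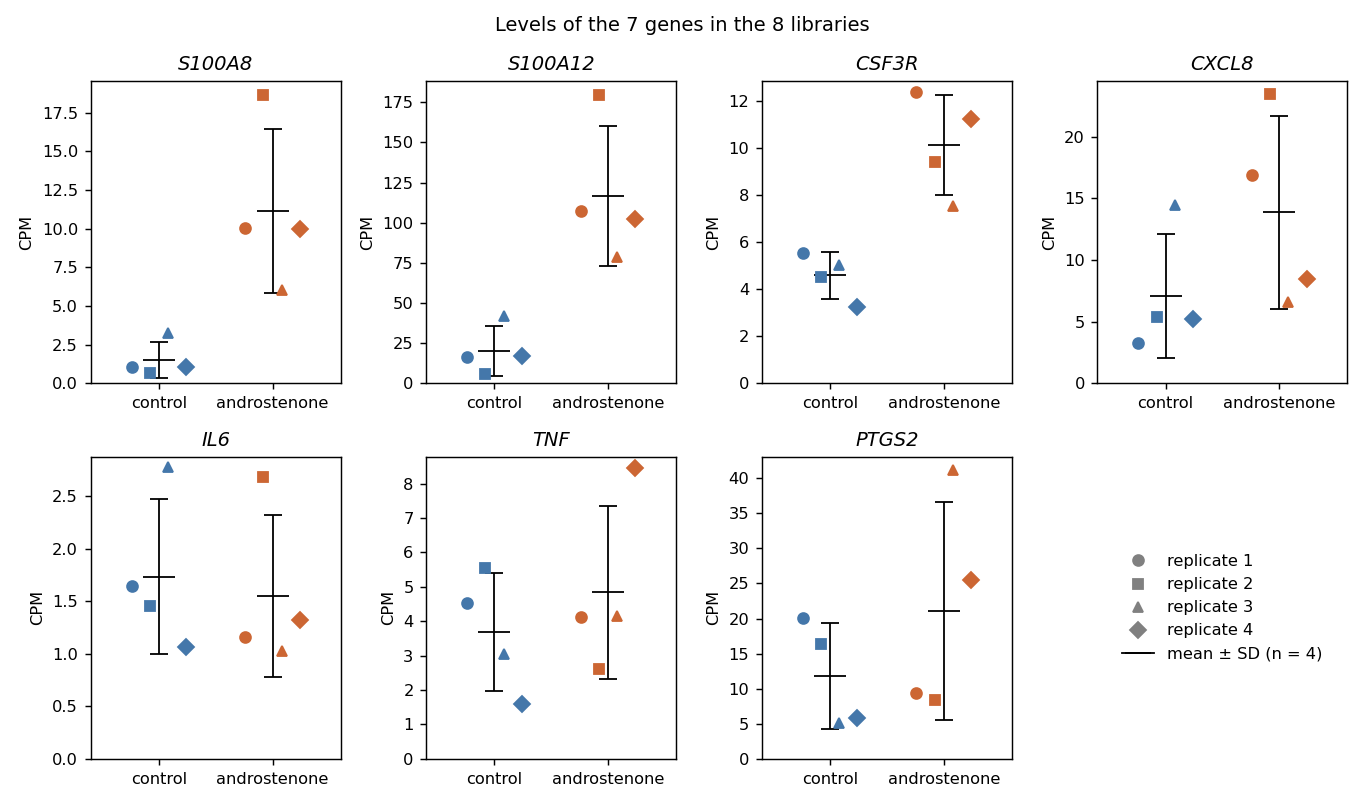
CPM (linear axis from 0) of each gene in the 4 control and 4 androstenone libraries, with a symbol per replicate number, and the mean ± SD as a bar. For S100A8, S100A12 and CSF3R every androstenone library lies above every control library, whereas CXCL8, IL6, TNF and PTGS2 overlap.

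At the cutoff named in the study's methods, an unadjusted p below 0.05 with a log2 fold change of 1 or more in either direction, S100A8, S100A12 and CSF3R were called higher and none of the 7 genes was called lower. Of the 21318 genes tested, 2.04% were called higher and 4.38% lower at this cutoff. In 3.89% of the genes tested, every androstenone library was above every control library, as it was for these 3 of the 7. With p-values adjusted by Benjamini-Hochberg across the whole table, 0.0% passed in edgeR's quasi-likelihood test (2415 genes, 11.3%, had an unadjusted p below 0.05), and the adjusted p of each of the 3 genes was 0.378. After the same adjustment, limma voom also called 0 genes. DESeq2, which called 3.14% of all genes after adjustment, gave adjusted p of 0.000412 for S100A8, 0.00237 for S100A12 and 0.00189 for CSF3R. CSF3R passed adjustment in DESeq2 alone of the 22 alternative settings, S100A8 and S100A12 in 4 each. In edgeR's exact and likelihood ratio tests, which called 0.736% and 0.938% of all genes, the adjusted p of CSF3R was 0.0955 and 0.0754. Over the 22 settings the adjusted p ran from 0.000412 to 0.893 for S100A8, from 0.00237 to 0.893 for S100A12 and from 0.00189 to 0.893 for CSF3R. The exact permutation test over the 70 assignments of the libraries gave p = 0.0286 for each of the 3 genes, the smallest p that 4 libraries against 4 allow, with 7 genes tested. Any gene without overlap between the groups receives this p, so the test restates the lack of overlap. The 7 genes were chosen with earlier results of these data known.

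As the groups did not overlap for these 3 genes, leaving out 1 library could not reverse their direction, and only the size was open. The other library of the same sow stayed in each fit, so dependence on 1 animal was not tested. When 1 library at a time was left out, the log2 fold change of S100A8 was between 2.48 and 3.65, that of S100A12 between 2.22 and 3.20 and that of CSF3R between 1.01 and 1.27, and all 3 passed the unadjusted cutoff in 8 of 8 fits, in which 1.24% to 4.48% of all genes were called higher. The highest values of S100A8 and S100A12 came without control 3. With both control 1 and control 4 left out (added once the data had been seen), the log2 fold changes were 2.48, 2.26 and 1.046 and the 3 calls held, with 0.97% of all genes called higher.

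**Figure D2:**
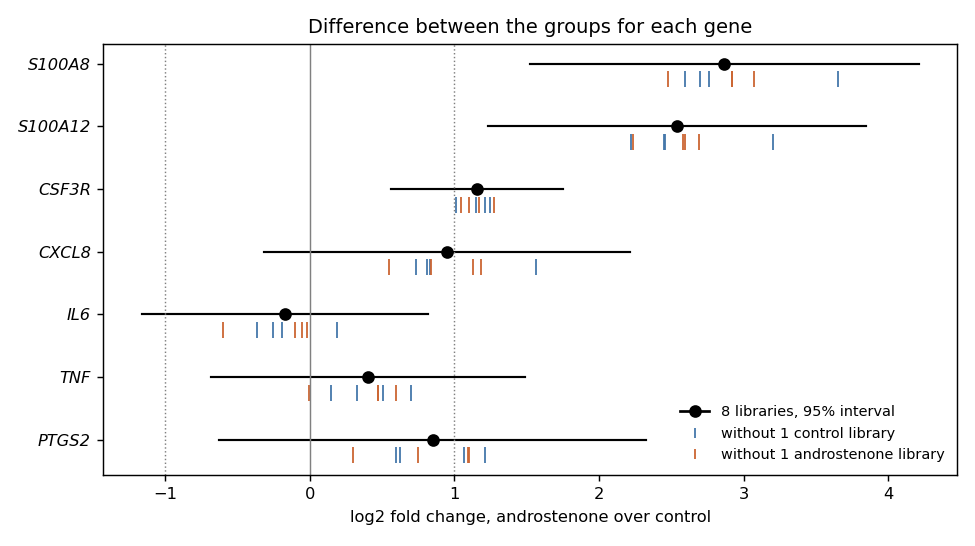
Log2 fold change of androstenone over control for each gene, from edgeR's quasi-likelihood fit. Points and lines give the value of the 8 libraries with its 95% interval, ticks the value with 1 library left out, and dotted lines a log2 fold change of -1 and 1. The intervals, which take libraries as replicates, lie above 0 for S100A8, S100A12 and CSF3R and include 0 for the other 4 genes.

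S100A8 and S100A12 also kept a similar proportion to each other in every library. On the TPM scale, which accounts for transcript length, the ratio of S100A12 to S100A8 was 5.95 to 11.3 over the 8 libraries, although the level of S100A8 itself ranged from 6.77 to 169 TPM. The ratio was 9.32 ± 2.47 in controls and 7.65 ± 1.03 after androstenone (SD, n = 4 libraries each). In the RefSeq annotation of Sscrofa11.1, S100A8, S100A12 and S100A9 lie within 29320 bases of chromosome 4. The S100 genes are related in sequence, and how reads shared between them were assigned is part of the estimated counts.

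**Figure D3:**
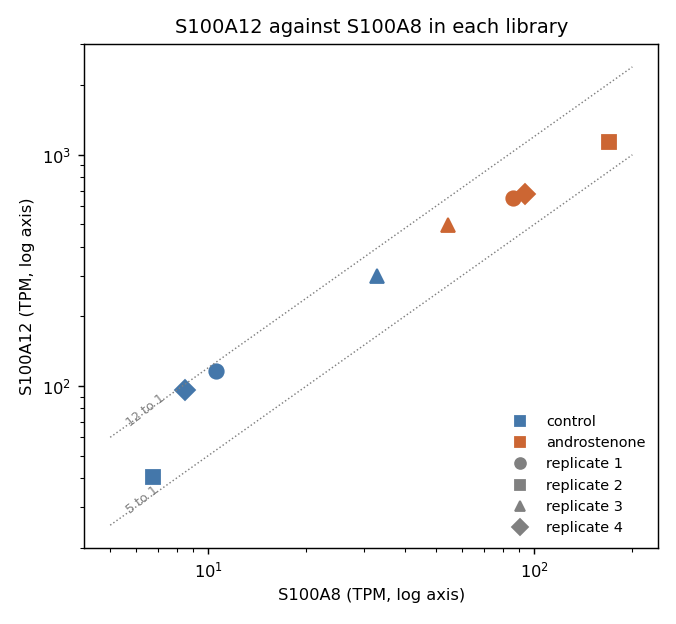
TPM of S100A12 against TPM of S100A8 in each library on log axes, with dotted lines at 5 and 12 S100A12 transcripts per S100A8 transcript. The 8 libraries lie along a band, with the 4 control libraries at its lower end and the 4 androstenone libraries at its upper end.

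The other S100 genes, a family looked at after the values of S100A8 and S100A12 were seen and given here without a test, did not move alike. Of 11 measured, 9 of them on chromosome 4, 6 had a log2 fold change above 0, against 10270 of all 21318 genes tested. The median was 0.24. S100A2 was at 69.3 ± 45.5 CPM in controls and 213 ± 132 CPM after androstenone (SD, n = 4 libraries each), with overlap between the groups. S100A6 was at 236 ± 54.5 and 433 ± 91.4 CPM, and it was the only one of the 11 whose groups did not overlap. Every androstenone library was above every control library in 3.89% of all genes tested. S100A10 and S100A11, on the same chromosome, had log2 fold changes of -0.34 and -0.0091.

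Markers of other cell types were read beside these transcripts. The 5 measured markers of marrow granulocyte precursors summed to 7.13 to 9.29 CPM in the control group and to 7.06 to 9.02 CPM in the androstenone treatment group. ELANE made up 69.3% of that sum, and MPO, the defining enzyme of the primary granules, had 0 to 7 counts per library. AZU1, another primary granule protein, was called higher (log2 fold change 1.47, 0 to 73 counts per control library and 70 to 177 per androstenone library). CEBPE, a transcription factor of granulocyte maturation, was called lower (-1.78, unadjusted p = 0.0469 in edgeR's quasi-likelihood test). It had 2 to 73 counts per control library, the most in control 2, and 4 to 18 per androstenone library. Both genes overlapped between the groups. Of all genes tested, 2.04% were called higher and 4.38% lower. The 9 markers of monocytes and macrophages summed to 272 to 1324 CPM in the control and 310 to 1032 CPM in the androstenone libraries. The 8 markers of squamous and basal epithelium that were measured, of 12 named, summed to 71.4 to 352 CPM in the control and 170 to 866 CPM in the androstenone libraries. Of these 8, DSG3, a desmosomal cadherin of stratified epithelium, was called higher, KRT5, KRT6A, KRT13 and KRT14 matched no identifier, and their part in the result was not tested. The ciliated cell markers were at 502 to 2432 CPM and at 565 to 2258 CPM. With the ciliated marker level of each library added to the fit, after seeing the data, the log2 fold changes of S100A8 and S100A12 were 2.87 and 2.59 with adjusted p of 0.0341 and 0.0489, that of CSF3R was 1.13 with an adjusted p of 0.0856 that missed the threshold, and 67 of all genes (0.314%) passed after adjustment. Within the 4 libraries whose ciliated marker level was above the mean (control 1, control 3, androstenone 1 and androstenone 2), the ratio of androstenone to control was 6.72 for S100A8 and 2.06 for CSF3R. Without control 1, left out after seeing the data because its marker level was close to the mean, these ratios were 4.43 and 2.17. Within the other 4 libraries they were 9.42 and 2.42. As neither gene overlapped between the groups, none of these ratios could fall below 1. Erythroid markers summed to 24.2 to 192 CPM in the control and 16.2 to 82.1 CPM in the androstenone libraries, and mast cell markers to 19.0 to 94.7 and 15.9 to 77.4 CPM. HBB made up 95.3% of the erythroid sum. Of the 7 measured erythroid markers, EPOR was called higher and SLC4A1 lower.

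**Figure D4:**
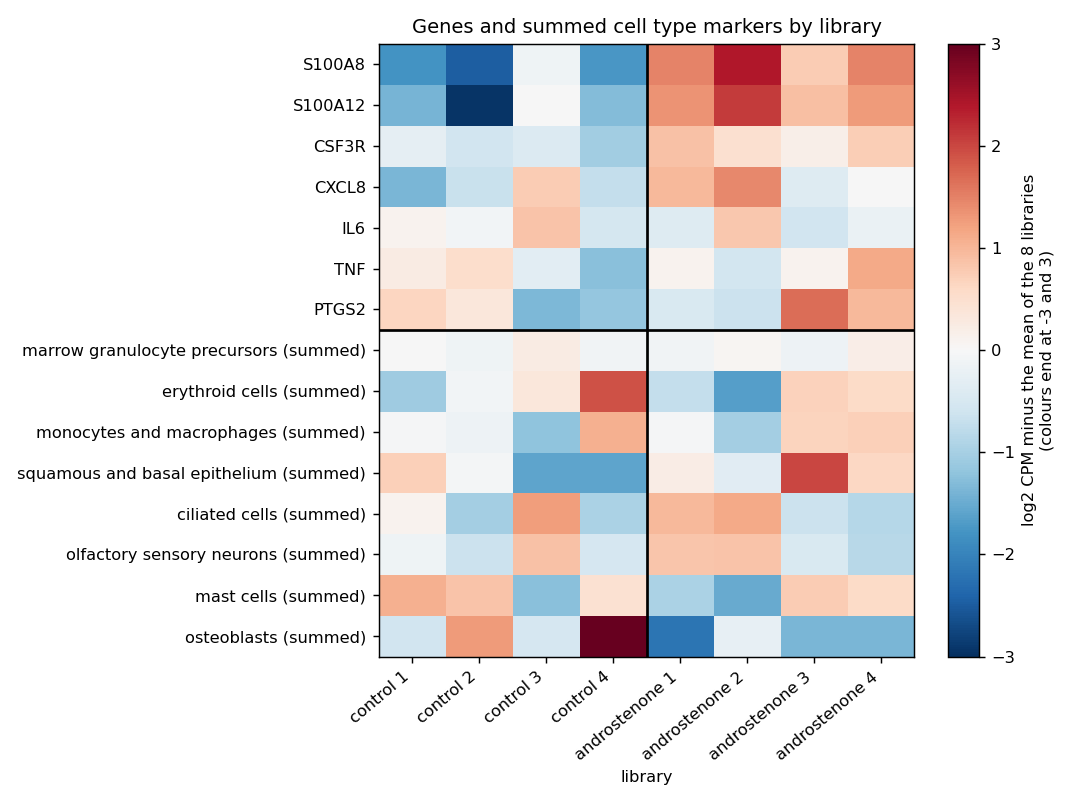
Log2 CPM of each gene and of the summed markers of 8 cell types, centred on the mean of the 8 libraries, with colours ending at -3 and 3. S100A8, S100A12 and CSF3R divide by group, CXCL8 is high in the same 3 libraries as the ciliated cell markers, and the osteoblast markers are highest in control 4.

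Over the 8 libraries, the 4 cytokine and prostaglandin genes did not separate the groups. CXCL8 (chromosome 8 from 69932646 to 69935861), the main chemokine that attracts neutrophils, was at 3.29, 5.36, 14.4 and 5.19 CPM in controls 1 to 4. In androstenone 1 to 4 it was at 16.9, 23.4, 6.57 and 8.47 CPM. The 3 highest libraries were androstenone 2, androstenone 1 and control 3, which were also the 3 with the most ciliated cell transcripts. Its log2 fold change was 0.95 (standard error 0.55, 95% interval -0.31 to 2.21, unadjusted p = 0.122 in edgeR's quasi-likelihood test). Without control 3 it was 1.56 with an unadjusted p of 0.0134, and with any other library left out CXCL8 missed the cutoff. Within the libraries above and below the mean ciliated marker level, the ratio of androstenone to control was 2.28 and 1.43, and the first was 1.40 without control 1, whose CXCL8 rests on 16 counts and whose marker level was close to the mean. In each set, CXCL8 was higher in every androstenone library than in any control library. The sets held only controls 1 and 3 against androstenone 1 and 2, and controls 2 and 4 against androstenone 3 and 4. So few libraries separate easily by chance, the share of all genes that do so was not computed, and the separation was not tested. With the ciliated marker level in edgeR's quasi-likelihood fit, added after seeing the data, its log2 fold change was 0.73. The unadjusted p was 0.0480 and the adjusted p 0.282, and CXCL8 missed the cutoff.

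IL6 (chromosome 9 from 91506421 to 91510830), the cytokine that drives the hepatic acute phase response, was low throughout. It was at 1.64, 1.45, 2.78 and 1.07 CPM in controls 1 to 4 and at 1.16, 2.69, 1.02 and 1.32 CPM in androstenone 1 to 4. Control 3 and androstenone 2 were the highest of their groups, and the groups overlapped over most of their range. The log2 fold change was -0.17 (standard error 0.43, 95% interval -1.16 to 0.82), and it was 0.19 without control 3.

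TNF (chromosome 7 from 23699635 to 23702393), an early cytokine of macrophages, mast cells and T cells, was at 4.52, 5.55, 3.06 and 1.61 CPM in controls 1 to 4. In androstenone 1 to 4 it was at 4.14, 2.62, 4.16 and 8.44 CPM. Androstenone 4 was the highest library and control 4 the lowest. For TNF the log2 fold change was 0.40 (standard error 0.48, 95% interval -0.68 to 1.49), and -0.0067 without androstenone 4. PTGS2 (chromosome 9 from 127850164 to 127858866) was at 20.1, 16.4, 5.06 and 5.82 CPM in controls 1 to 4 and at 9.43, 8.33, 41.2 and 25.4 CPM in androstenone 1 to 4. Its highest libraries were androstenone 3 and androstenone 4, and controls 1 and 2 lay above androstenone 1 and androstenone 2. For PTGS2 it was 0.85 (standard error 0.65, 95% interval -0.62 to 2.33, unadjusted p = 0.222 in edgeR's quasi-likelihood test). It was 0.30 without androstenone 3 and 1.22 without control 1, without passing the cutoff in either fit. Within the libraries above and below the mean ciliated marker level, the ratio of PTGS2 was 0.705 and 3.00, and the first was 1.75 without control 1. The intervals of CXCL8, TNF and PTGS2 include log2 fold changes above 1.

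On the TPM scale the order of the levels was S100A12, S100A8, CXCL8, PTGS2, TNF, IL6 and CSF3R in the control group, from 138 ± 111 to 2.39 ± 0.713 TPM (SD, n = 4 libraries). Only S100A12 was separate from the next gene, and every other pair of neighbours in that order overlapped between libraries. In the androstenone treatment group S100A12 was at 740 ± 279 TPM, S100A8 at 101 ± 48.5 TPM and CXCL8 at 13.9 ± 7.78 TPM, with no overlap between S100A12 and S100A8 or between S100A8 and CXCL8. PTGS2, CSF3R, TNF and IL6 followed between 7.93 and 2.84 TPM on average, each overlapping with its neighbour. CSF3R was the last of the 7 in controls and the fifth after androstenone.

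The other genes of neutrophils did not follow S100A8 and CSF3R as a group. Of 26 names for neutrophil receptors, the oxidase and granule proteins, 20 were tested. Of these, 2 were called higher and 2 lower, against 2.04% and 4.38% of all genes tested. In 2 of the 20, every androstenone library was above every control library, against 3.89% of all genes tested. The median log2 fold change was 0.054, against -0.021 over all genes tested. PGLYRP1, a granule protein that binds bacterial peptidoglycan, was at 2.81 to 4.70 CPM in the control libraries. It was at 146 and 194 CPM in androstenone 1 and androstenone 2 but at 6.17 and 8.16 CPM in androstenone 3 and androstenone 4, a log2 fold change of 4.44 (standard error 1.14). LCN2, an iron-sequestering protein of granules and of epithelium, was at 771 ± 346 CPM in controls and 1804 ± 800 CPM after androstenone (SD, n = 4 libraries each), with overlap. Its log2 fold change was 1.23, and it missed the cutoff without control 2, control 4, androstenone 1 or androstenone 2, at 0.98 to 1.14. OLFM4 was called lower at -2.97, with 228 and 114 CPM in controls 2 and 4 and 7.29 to 23.8 CPM in the other libraries, and was at -2.06 without control 2. MMP9 was called lower through control 4, at 1514 CPM against 16.0 to 116 CPM elsewhere, and its log2 fold change of -3.50 was -0.52 without that library. MMP9 also missed the cutoff without androstenone 2, androstenone 3 or androstenone 4, at -3.52 to -3.25. Among genes of this list named after their values were seen, the integrin subunits ITGAM and ITGB2, which make the neutrophil adhesion receptor Mac-1, had log2 fold changes of -0.88 and -0.038. The oxidase subunit NCF4, also named after its values were seen, had one of 0.91. NCF4 was at 31.9 to 40.1 CPM in the control and 43.4 to 101 CPM in the androstenone libraries, without overlap.

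**Figure D5:**
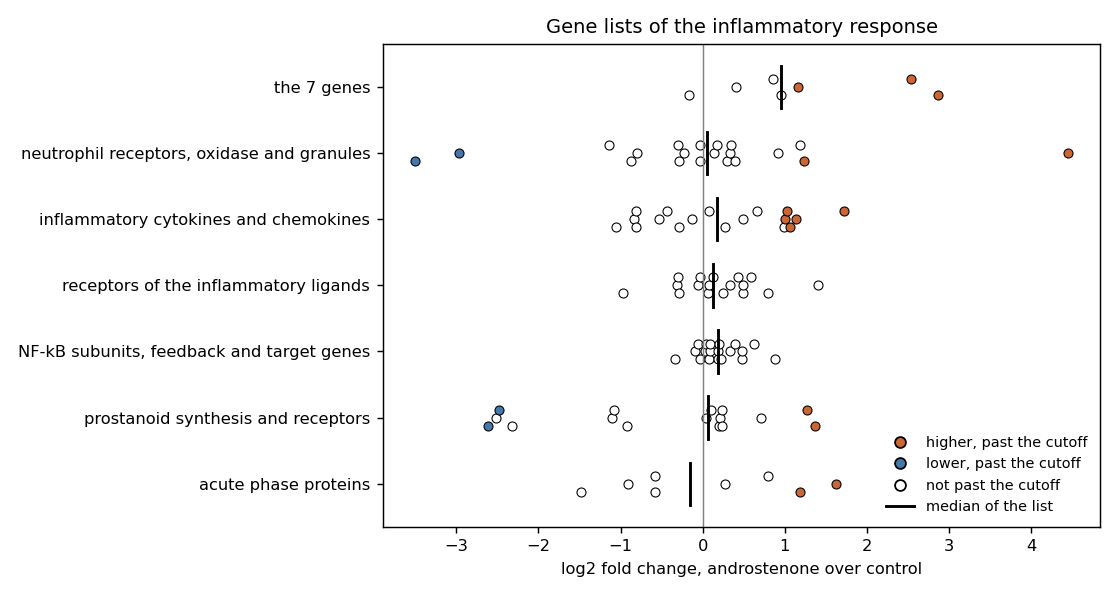
Log2 fold change of androstenone over control for every tested gene of the 7 genes and of 6 further lists, with filled points past the unadjusted cutoff and a vertical line at the median of each list. The medians of the 6 further lists lie between -0.16 and 0.18, and that of the 7 genes is 0.95, the value of CXCL8. The 7 genes and the lists were chosen with earlier results of these data known, and their difference was not tested.

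Of the inflammatory cytokines and chemokines, 18 of 21 names were tested, with a median log2 fold change of 0.18. Of the 18, 5 were called higher and 0 lower, against 2.04% and 4.38% of all genes tested. In 4 of the 18, every androstenone library was above every control library, as in 3.89% of all genes tested. CXCL10, an interferon-induced chemokine for T cells, was at 21.5 to 72.7 CPM in the control and 87.1 to 207 CPM in the androstenone libraries, without overlap, and its log2 fold change was 1.71 (standard error 0.43). IL1A, the alarm cytokine released by damaged epithelium, was at 2.20 to 5.22 and 6.26 to 8.57 CPM, also without overlap, a log2 fold change of 1.03. IL1A missed the cutoff without control 2, control 4, androstenone 2 or androstenone 3, at 0.85 to 0.99. CCL5, a T cell chemokine, was at 29.0 to 46.0 and 49.7 to 113 CPM, a log2 fold change of 1.00 that was 0.71 to 0.98 and past the cutoff no longer without control 2, control 4, androstenone 1 or androstenone 2. CCL3L1 and CCL4, macrophage chemokines, passed narrowly with unadjusted p of 0.0494 and 0.0499 in edgeR's quasi-likelihood test. Both were highest in androstenone 1 and androstenone 2, overlapped between the groups, and missed the cutoff without any of the 4 control libraries, androstenone 1 or androstenone 2. Their log2 fold changes in those 6 fits were 0.74 to 1.27 and 0.71 to 1.15.

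Neither the receptors of these ligands nor the NF-kB genes held a call. All 17 receptors and adaptors were tested with 0 called, against 2.04% called higher and 4.38% lower of all genes tested. At those shares a list this short can hold no call. The median log2 fold change was 0.12 and the range -0.97 to 1.41. Of the 17, 11 were above 0, and in 1 every androstenone library was above every control library. The most abundant were IL6ST, the signalling subunit of the IL6 receptor, at -0.064, IL1R1, the IL1 receptor, at 0.43, and the adaptor MYD88 at 0.50. Of the NF-kB subunits, feedback and target genes, 19 of 20 names were tested and 0 were called, against the same shares of all genes. The median was 0.18 and the range -0.33 to 0.88. Of the 19, 15 had a log2 fold change above 0, against 10270 of all 21318 genes tested. In 2 of the 19, every androstenone library was above every control library, as in 3.89% of all genes tested. The feedback inhibitors NFKBIA and NFKBIZ were at 0.083 and -0.029, and BIRC3, an inhibitor of cell death induced by NF-kB, at -0.056. Named after their values were seen, ICAM1, the endothelial ligand of Mac-1, and NFKBIB were the genes without overlap. The log2 fold change of ICAM1 was 0.88 (standard error 0.23), the highest of the 19, and that of NFKBIB was 0.48. Without control 4, ICAM1 was called higher as the only one of the 19.

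Genes of prostanoid synthesis and sensing went in both directions. All 16 were tested, and the median log2 fold change was 0.07. Of the 16, 2 were called higher and 2 lower, against 2.04% and 4.38% of all genes tested. In 1 of the 16, every androstenone library was above every control library, as in 3.89% of all genes tested. PTGES, the inducible enzyme that turns the product of PTGS2 into prostaglandin E2, was at 13.2 to 31.2 CPM in the control and 28.2 to 71.7 CPM in the androstenone libraries, a log2 fold change of 1.37 (standard error 0.38). TBXAS1, the thromboxane synthase, was at 1.47 to 3.49 and 4.67 to 6.46 CPM, without overlap, a log2 fold change of 1.28 (standard error 0.31). PTGFR, the receptor of prostaglandin F2alpha, was at 29.6 to 271 CPM in the control and 19.7 to 23.9 CPM in the androstenone libraries, with every androstenone library below every control library, as for 2.64% of all genes tested. Its log2 fold change was -2.48, and -1.70 without control 4, which had its highest level. PTGDS, the prostaglandin D2 synthase, had a log2 fold change of -2.61 and missed the cutoff without control 4, at -1.89. Without control 1 or control 3, 4 genes of this list were called lower.

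Of the acute phase proteins, 8 of 12 names were tested. Of the 8, 2 were called higher and 0 lower, against 2.04% and 4.38% of all genes tested. The median log2 fold change was -0.16, and 4 of the 8 were above 0. Every androstenone library was above every control library in 2 of the 8 and below in 1, as in 3.89% and 2.64% of all genes tested. C3, the central complement protein, was at 486 to 1266 CPM in the control and 2070 to 2557 CPM in the androstenone libraries, without overlap, a log2 fold change of 1.19. C3 was at 0.96 and no longer past the cutoff without control 4. CP, the ferroxidase ceruloplasmin, was at 22.4 to 154 and 179 to 308 CPM, a log2 fold change of 1.62 that missed the cutoff without control 1, control 2 or androstenone 2, at 1.32 to 1.39. CFB, complement factor B, had a log2 fold change of 0.27.

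Each gene was also set beside the genes whose pattern over the 8 libraries was nearest, by the root mean square difference in centred log2 CPM among 13450 named genes with a mean of at least 1 CPM. S100A8 and S100A12 were each other's nearest gene at 0.31, and CAPN14, a calpain protease, came next for both at 0.60 and 0.57. CSF3R was nearest to SLC6A12 (0.17) and FAS (0.20). CXCL8 was nearest to B4GALT4 (0.22) and RGS4 (0.22), IL6 to ALKAL1 (0.24) and GIPC2 (0.26), and PTGS2 to PROKR1 (0.29) and MST1 (0.30). TNF was nearest to P2RY10 (0.15) and CD28 (0.16), the latter a co-stimulatory receptor of T cells. For scale, the root mean square spread of the 7 genes themselves over the libraries was 0.52 for IL6 to 1.68 for S100A8.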

How the data were processed

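RNA was sequenced from 8 OE libraries, 4 per group. Per the submitters' processing notes, reads were filtered with fastp 0.23.1 and quantified with kallisto 0.48.0 on Sscrofa11.1 transcripts. The authors deposited an estimated count, which is not normalized and need not be whole, and a TPM value, which corrects for length and depth, per gene and library. How transcripts were summed to genes was not given in the sources.

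Estimated counts were rounded, and the 21318 of 22516 genes with at least 1 count were tested with edgeR 4.0.16 (TMM, quasi-likelihood, group as the only term) in R 4.3.3. Calls used an unadjusted p below 0.05 and a log2 fold change of 1 or more in size. Standard errors were derived from the F statistic. Symbols came from a name table that matched 15527 identifiers, and coordinates from RefSeq. Python 3.11.15 gave the exact permutation tests (two-sided). Alternatives were DESeq2 1.42.0, limma 3.58.1 (voom, and log2 TPM with a pseudocount of 0.1 or 1), edgeR's exact and likelihood ratio tests, other scalings and filters, a replicate block and each library left out. The tests were checked on simulated counts. These were drawn independently for each library, so the check does not cover libraries that share a sow.

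Named genes were the members, list genes past the cutoff (filled up to 3 per list by mean CPM) and the 2 nearest genes by pattern. Members and lists were chosen with earlier results of these data known. In control 1 a count of 0 allowed up to 0.616 CPM (3 counts), in the other libraries at most 0.0451 CPM.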

Additional observations from a re-analysis of the deposited data

Results flagged for a closer look

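In 3 of 58 groups of 4 libraries tested, 1 library stood apart from the other 3 by Dixon's criterion, and chance alone flags about 1 in 20. S100A8 in control 3 was at 3.23 CPM, against 0.644 to 1.053 CPM in the other control libraries. MMP9 in control 4 was at 1514 CPM, against 19.8 to 116 CPM in the other controls. CFB in control 3 was at 277 CPM, against 54.4 to 86.9 CPM in the other controls.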

How the results depend on the processing

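S100A8 and S100A12 were called higher in 22 of 22 alternatives and CSF3R in 21 of 22, with a log2 fold change of 0.78 on log2(TPM + 1). With 1 library left out at a time, CXCL8 was at 0.55 to 1.56, IL6 at -0.60 to 0.19, TNF at -0.0067 to 0.70 and PTGS2 at 0.30 to 1.22. The counts of list genes moved more. Of the neutrophil list, 1 gene was called higher and 1 lower with limma voom, on log2(TPM + 0.1) and on log2(TPM + 1), 0 higher without both control 1 and control 4, and 0 lower with the ciliated marker level in the fit, these last 2 settings chosen after seeing the data. Of the cytokine list, 2 were called higher with RLE size factors, filterByExpr, a minimum of 10 counts, without both controls or with the ciliated marker level, 3 with library size only or limma voom, and 1 on either TPM scale. Of the prostanoid list, 4 were called lower with the exact test, the likelihood ratio test, DESeq2 or the ciliated marker level, 1 with limma voom, either TPM scale or without both controls, and 1 was called higher on log2(TPM + 1). Without both controls, 0 acute phase genes were called higher and 1 lower. With 1 library left out, the neutrophil list had 1 to 2 higher and 1 to 3 lower, the cytokine list 1 to 5 higher, the NF-kB list 0 to 1 higher, the prostanoid list 1 to 4 lower, and the acute phase list 1 to 2 higher and 0 to 1 lower. The causes were not tested.

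Log2 fold changes near 0 changed sign. IL6ST was at 0.012 with library size only, 0.0029 without both controls and -0.18 to 0.034 with 1 library left out. NFKBIZ was at 0.019 with library size only, 0.11 with limma voom, 0.046 and 0.043 on the TPM scales, and -0.26 to 0.47 with 1 library left out. NFKBIA was at -0.067 and CFB at -0.21 without both controls. With 1 library left out, NFKBIA was at -0.090 to 0.32, BIRC3 at -0.16 to 0.0077 and CFB at -0.12 to 1.06.

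A replicate block was tried because both groups carry replicate numbers 1 to 4. Same-numbered libraries deviated together with correlations of -0.60 to 0.17, so the numbers were not taken as pairs. Under the block the log2 fold changes of S100A8, S100A12 and CSF3R were 3.09, 2.78 and 1.15 and all 3 calls held, 1 neutrophil gene and 1 prostanoid gene were called lower, 2 cytokine genes were called higher, and NFKBIZ was at 0.16. The few deposited counts of control 1 limit low genes most.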
